A study of Mus musculus with 3 samples.

Results

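The *Dio2* *Pthlh* FAPs described here were 757 of the 5808 fibro-adipogenic progenitors (FAPs) found among 12275 cell barcodes of mouse costal diaphragm. FAPs are the resident mesenchymal cells of skeletal muscle, which lie between the fibers, make much of the extracellular matrix (ECM) and can give rise to fibroblasts and adipocytes. A barcode counted as a FAP when it held at least 1 UMI of *Pdgfra*, the receptor that marks these cells, at least 3 UMIs of the matrix proteoglycan gene *Dcn*, and none of *Ptprc*, *Pecam1* or *Pax7*, which mark leukocytes, endothelial cells and muscle stem cells. A UMI is the molecular tag that lets each captured mRNA be counted once. Each FAP was then scored on 7 sets of 4 genes, as the mean z-score of log-transformed counts per 10000 UMIs, and was given to the set with its highest score. The cells kept here scored highest on *Dio2*, *Pthlh*, *Col8a1* and *Aspn*. These 4 genes therefore chose the cells, so that their own levels, and the differences of any gene from the other FAPs, are given as a description without a test.

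The 4 genes point to different kinds of activity. *Dio2* encodes type 2 deiodinase, which turns the prohormone thyroxine into active triiodothyronine inside the cell, and its transcription is a known response to cyclic AMP. *Pthlh* encodes parathyroid hormone-related protein (PTHrP), a secreted peptide that acts on nearby cells through the receptor PTH1R and cyclic AMP. *Col8a1* encodes a chain of the network-forming type VIII collagen, and *Aspn* encodes asporin, a small leucine-rich proteoglycan that binds collagen and TGF-β.

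The cells came from 3 libraries of mononuclear cells from male mice, 1 for each group. The WT CD group was C57Bl/6J mice fed control diet (CD), the WT HFD group was C57Bl/6J mice fed high-fat diet (HFD, 45% of calories from lipid), and the KO HFD group was B6.129S2-Thbs1tm1Hyn/J mice, which lack thrombospondin 1 in every tissue, on the same HFD. All were fed for 6 months, and the methods of the study give 2 mice pooled in each library. With 1 library per group, no difference between groups has a replicate check and no test was possible. The intervals given are exact 95% intervals, Clopper-Pearson for shares and Poisson for counts, and cover counting error only.

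The WT CD library held 34312860 UMIs over 4132 barcodes, the WT HFD library 31967976 over 3774 and the KO HFD library 36478779 over 4369. The FAP gate kept 46.7%, 47.1% and 48.0% of them. The *Dio2* *Pthlh* FAPs numbered 258 of 1930 on CD (13.4%, interval 11.9% to 15.0%), 275 of 1779 on WT HFD (15.5%, 13.8% to 17.2%) and 224 of 2099 in the KO (10.7%, 9.38% to 12.1%). The share was thus highest on WT HFD and lowest in the KO, and the intervals of those 2 libraries did not overlap. When z-scores were taken within each library the 2 HFD shares came to 13.4% (11.8 to 15.05) and 12.2% (10.8 to 13.7), with intervals that overlapped. The levels of the set genes over all FAPs also differed between the libraries. *Aspn* stood at 989, 1199 and 822 CPM (the UMIs of a gene scaled to the same total in each population) over all FAPs on CD, on HFD and in the KO. Whether the number of these cells or the level of the set genes differed cannot be told apart.

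*Dio2* *Pthlh* FAPs were somewhat deeper than the rest. Their median depth was 9165 UMIs in the WT CD, 9785 in the WT HFD and 8602 in the KO HFD library, against 8496, 9094.5 and 8411 UMIs in the other FAPs. The median mitochondrial share was 3.09%, 2.71% and 2.99%. Scrublet called 2 of the WT CD cells and none of the others as doublets. The libraries shared 7, 7 and 2 barcode sequences pairwise, none of them from a *Dio2* *Pthlh* FAP.

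The set was not sharply bounded. All 4 genes were detected in 235 of the 757 cells, 3 genes in 352, 2 genes in 166 and 1 gene in 4. Among the other 5051 FAPs, 50 held all 4 genes and 671 held none. The score on the set had a median of 1.02 (range -0.37 to 3.44) in the chosen cells and of -0.22 in the rest. In 243 cells (32.1%) the lead over the next set was under 0.25, and the nearest cell inside the limit led by 0.0012 where the nearest outside had a difference of -0.0004. The next set was *Cxcl14* *Mme* in 218 cells, *Dpp4* *Sema3c* in 152, *Sfrp4* *Spon2* in 137, *Fmod* *Sfrp2* in 99, *Agt* *Ptx3* in 81 and *Gdf10* *Rbp4* in 70. Over 6471 genes, the summed profile was most like that of the *Sfrp4* *Spon2* set (r = 0.967 across genes, which are not replicates) and the *Cxcl14* *Mme* set (r = 0.964), and least like that of *Agt* *Ptx3* (r = 0.936).

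The cells carried the general FAP genes outside the gate. None of 12 such genes was counted as higher or lower than in the other sets, with a median log2 ratio of -0.07. *Cd34*, a surface sialomucin of stromal progenitors, reached 974, 1009.7 and 1003 CPM on CD, on HFD and in the KO (the order kept from here on), against 765, 874 and 786 CPM in the other sets. *Osr1*, a transcription factor of limb and body wall mesenchyme, reached 50.9, 66.3 and 75.1 CPM against 103, 113 and 104 CPM.

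*Dio2*, on the minus strand of chr12 (90724552 to 90738438, GRCm38), was the most selective of the 4 genes. It reached 164 CPM (149 to 181) in the WT CD cells, 195 CPM (179 to 212) in the WT HFD cells and 140.3 CPM (124 to 158) in the KO HFD cells. The other FAPs held 6.72, 14.3 and 12.7 CPM. The next set in every library was *Cxcl14* *Mme*, at 26.2, 39.7 and 38.5 CPM. A UMI of *Dio2* was found in 47.7%, 56.0% and 51.3% of the chosen cells and in 3.95%, 8.31% and 6.56% of the other FAPs. After thinning every cell to 3000 UMIs the shares were 26.3%, 32.5% and 29.2% against 1.95%, 3.76% and 3.20%. As a measure of free RNA, *Ptprc* barcodes, which should lack the gene, held a *Dio2* UMI in 0.562%, 0.965% and 1.36% of cases at median depths of 9024, 8801 and 9125.5 UMIs. Barcodes with *Pax7*, which marks muscle stem cells, held one in 5.80%, 9.92% and 9.95%.

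The 250 bases before the RefSeq start site of *Dio2* (GRCm38.p6, chr12:90739039-90739288, minus strand) are shown because they hold a full cyclic AMP response element. The capitals mark this element, TGACGTCA, 95 bases before the start, and the letters GGAATG, the reverse complement of the TEAD motif CATTCC, 36 bases before it.
Dio2: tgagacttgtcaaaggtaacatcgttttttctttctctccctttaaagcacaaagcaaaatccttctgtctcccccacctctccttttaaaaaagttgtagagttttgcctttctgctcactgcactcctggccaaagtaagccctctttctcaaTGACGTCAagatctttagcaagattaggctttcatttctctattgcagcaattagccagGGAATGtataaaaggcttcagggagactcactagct

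*Pthlh*, on the minus strand of chr6 (147252101 to 147264183), reached 236 CPM (217 to 256) in the WT CD, 184 CPM (169 to 201) in the WT HFD and 193 CPM (175 to 213) in the KO HFD cells. The other FAPs held 30.1, 27.2 and 27.7 CPM. The CD value was the highest of the 3, as a description of cells chosen on this gene. It was detected in 72.5%, 65.5% and 58.0% of the chosen cells, against 1.12%, 0.482% and 1.09% of the *Ptprc* barcodes.

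*Col8a1*, on the minus strand of chr16 (57624258 to 57754737), reached 744, 853 and 803 CPM, with 201, 244 and 209 CPM in the other FAPs. *Aspn*, on the plus strand of chr13 (49544443 to 49567565), reached 2070, 2437 and 2178 CPM, with 810, 950 and 657 CPM in the other FAPs. Both were graded over the sets, and the *Fmod* *Sfrp2* set came next for *Col8a1* at 388, 513 and 352 CPM. For *Aspn* the *Dpp4* *Sema3c* set came next on CD at 1187 CPM, and the *Fmod* *Sfrp2* set in the other libraries at 1486 and 1086 CPM.

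**Figure D1:**
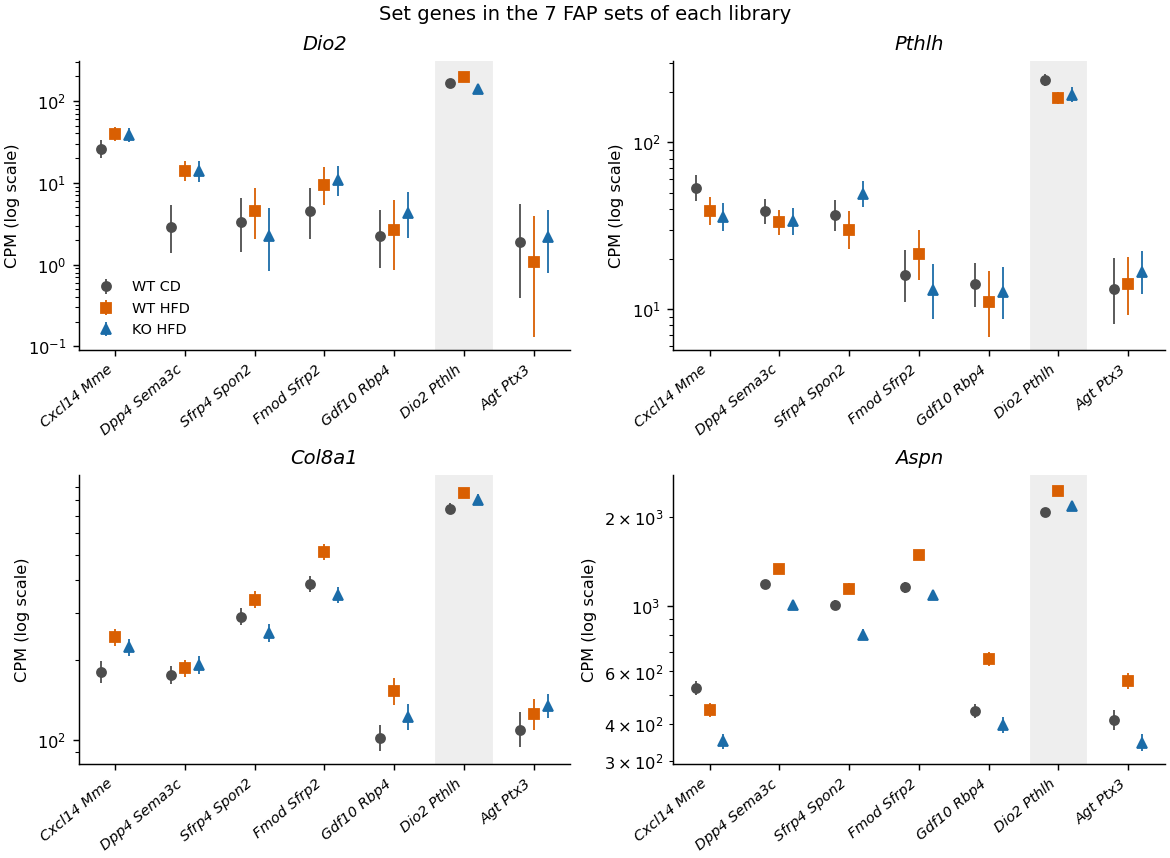
Level of each of the 4 set genes (CPM, log axis) in the 7 FAP sets of each of the 3 libraries, with exact 95% Poisson intervals; the shaded column holds the cells chosen on these genes. *Dio2* stood at 140.3 to 195 CPM there and at 39.7 CPM or less elsewhere, while *Aspn* was at 345 CPM or more in every set.

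To see how far the genes went together, the choice was repeated with 1 gene left out and that gene was read in the cells then chosen. *Dio2* was 8.51, 5.54 and 5.19 times its level in the other FAPs. *Pthlh* was 3.31, 3.51 and 3.13 times as high, *Col8a1* 3.05, 2.71 and 3.05 times and *Aspn* 2.23, 2.28 and 2.63 times. Between 73.5% and 91.7% of the cells so chosen were also among the 757, so that these ratios describe the set and are no independent support for it.

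Against the mean of the other 6 sets, 65 of 6273 genes (1.04%) were counted as higher in all 3 libraries and 115 (1.83%) as lower. A gene was counted when it was at least 1.5-fold from this mean in each library, with its Poisson interval apart from that of the other FAPs summed. The 28 scoring genes were left out. Without the 3 richest *Dio2* *Pthlh* FAPs of each library for each gene, 42 were higher. This left the other 6 sets whole, so that it could lower but not raise the level set against them. The same holds for each ratio to the other sets given below without the richest cells. The median log2 ratio over all 6273 genes was 0.05.

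Of 17 matricellular genes counted, 5 were higher and none lower (median log2 ratio 0.37). *Postn*, which encodes periostin, reached 357, 548 and 554 CPM against 106.1, 106.0 and 109.9 CPM in the other sets. In the KO HFD library 1 cell held 377 of its 1122 UMIs, and without the 3 richest cells of each library the mean log2 ratio went from 2.15 to 1.64. *Ccn2*, which encodes connective tissue growth factor, reached 955, 1119 and 1120.0 CPM against 304, 344 and 332 CPM. *Thbs4*, which encodes thrombospondin 4, a tendon and muscle matrix protein, reached 1954, 2017 and 2020 CPM against 800, 851 and 656 CPM. All 3 genes were above the mean of the other sets in each library, but *Thbs4* was not above every set, since the *Fmod* *Sfrp2* set held 2265 CPM over the 3 libraries together against 1996 CPM. *Sparcl1*, which encodes hevin, was higher with a mean log2 ratio of 0.73. *Comp*, which encodes cartilage oligomeric matrix protein, was higher by 1.92, but its 3 richest cells held 76.8%, 54.3% and 68.6% of its UMIs, and without 3 cells per library the ratio was 0.29.

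Among the other secreted proteins, *Prg4*, which encodes the lubricant lubricin, reached 599, 909 and 762 CPM against 189, 328 and 240.3 CPM. *Cilp*, which encodes cartilage intermediate layer protein, reached 2082, 2335 and 2449 CPM against 901, 1153 and 979 CPM. *Prg4* was detected in 50.6%, 57.3% and 52.0% of the cells thinned to 3000 UMIs, against 21.5%, 27.5% and 22.9% of the other FAPs. *C1qtnf3*, which encodes the secreted CTRP3, had the largest lowest ratio (1.97 on the log2 scale) and stood at 123, 66.3 and 71.1 CPM against 11.7, 16.9 and 8.63 CPM. It was a gene of few cells, detected in 9.69%, 16.0% and 11.2% of them, and without the 3 richest cells per library its mean log2 ratio fell from 2.80 to 1.30.

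Genes of the TGF-β and activin family were also among them, with 4 of 32 counted as higher (*Inhba*, *Inhbb*, *Tgfb1* and *Ltbp2*) and 1 lower (*Fst*). *Inhba*, the βA subunit of activin A, reached 57.3, 79.3 and 73.1 CPM against 19.6, 22.5 and 17.2 CPM, and the *Cxcl14* *Mme* set was close at 61.1 CPM over the libraries against 70.2 CPM. In the KO HFD library 1 cell held 54 of its 148 UMIs, and without the 3 richest cells of each library its levels were 46.1, 68.1 and 39.0 CPM. *Tgfb1*, the ligand itself, reached 75.3, 55.1 and 60.3 CPM against 28.7, 28.9 and 28.3 CPM. *Fst*, which encodes the activin-binding follistatin, went the other way at 41.3, 48.1 and 72.6 CPM against 163, 191 and 209 CPM. The median of the 32 genes was 0.09. *Pmepa1*, a TGF-β-induced membrane protein that dampens the pathway, was outside this list and reached 1008, 956 and 924 CPM against 494, 431 and 414 CPM. *Ltbp2*, a latent TGF-β binding protein of elastic fibers, was higher by 2.78, and without the 3 richest cells per library the ratio was 1.41 and its call was lost.

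The remaining leading genes had varied roles. *Ackr4*, which encodes an atypical receptor that clears CCL19 and CCL21, reached 147, 175 and 132 CPM against 44.9, 66.5 and 43.0 CPM, while *Ccl19* itself was lower at 31.3, 36.5 and 30.1 CPM against 88.0, 96.0 and 78.6 CPM. *Meox1*, a homeobox transcription factor, reached 206, 210.2 and 241 CPM against 82.7, 101 and 95.03 CPM. *Ckb*, the brain-type creatine kinase, reached 732, 593 and 576 CPM against 302, 266 and 249.2 CPM. Levels of *Ackr4*, *Meox1* and *Ckb* lay above the mean of the other sets in each library. *Pgf*, an angiogenic factor of the VEGF family, *Fibin*, *Plekha6*, *Fhl2*, a LIM-domain cofactor, *Prss12*, the protease neurotrypsin, and *F2r*, the thrombin receptor PAR1, had lowest log2 ratios between 0.84 and 1.22.

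**Figure D2:**
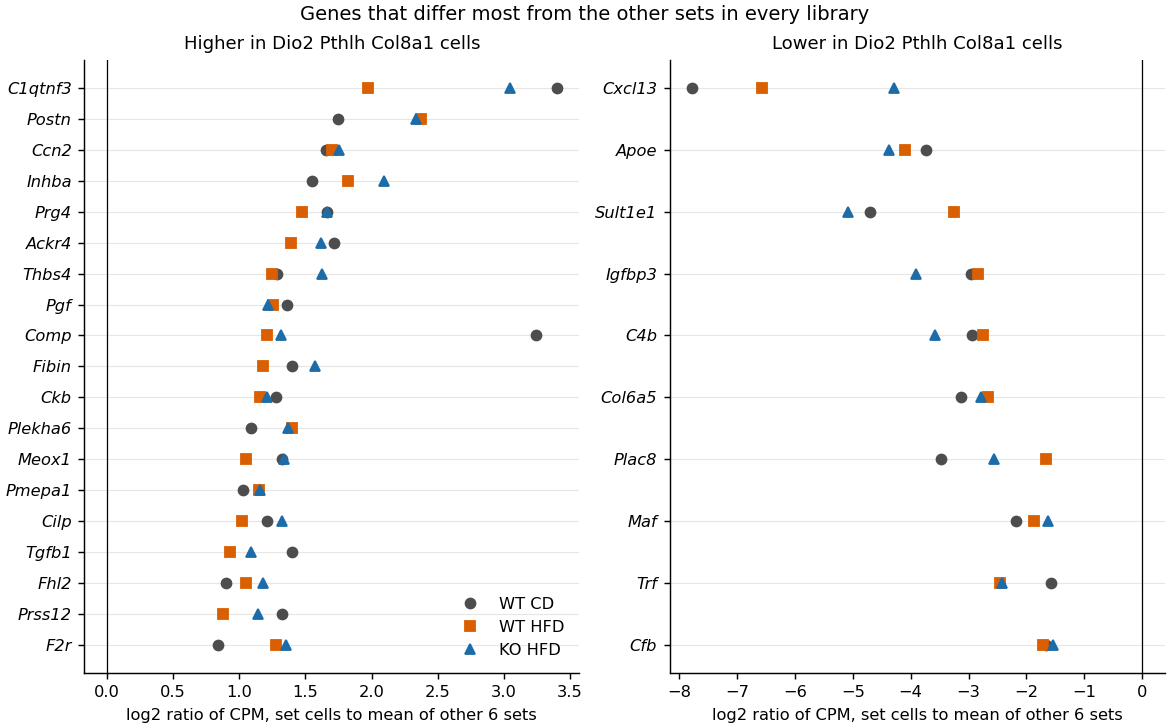
log2 ratio of CPM in *Dio2* *Pthlh* FAPs to the mean of the other 6 sets, in each library, for 19 of the 20 higher and the 10 lower genes chosen by the rule. The higher genes lie between 0.84 and 3.40 and the lower genes between -7.77 and -1.54; for *Cxcl13* in the 2 HFD libraries, where no UMI was found, a floor of 3 counts was used.

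**Figure D3:**
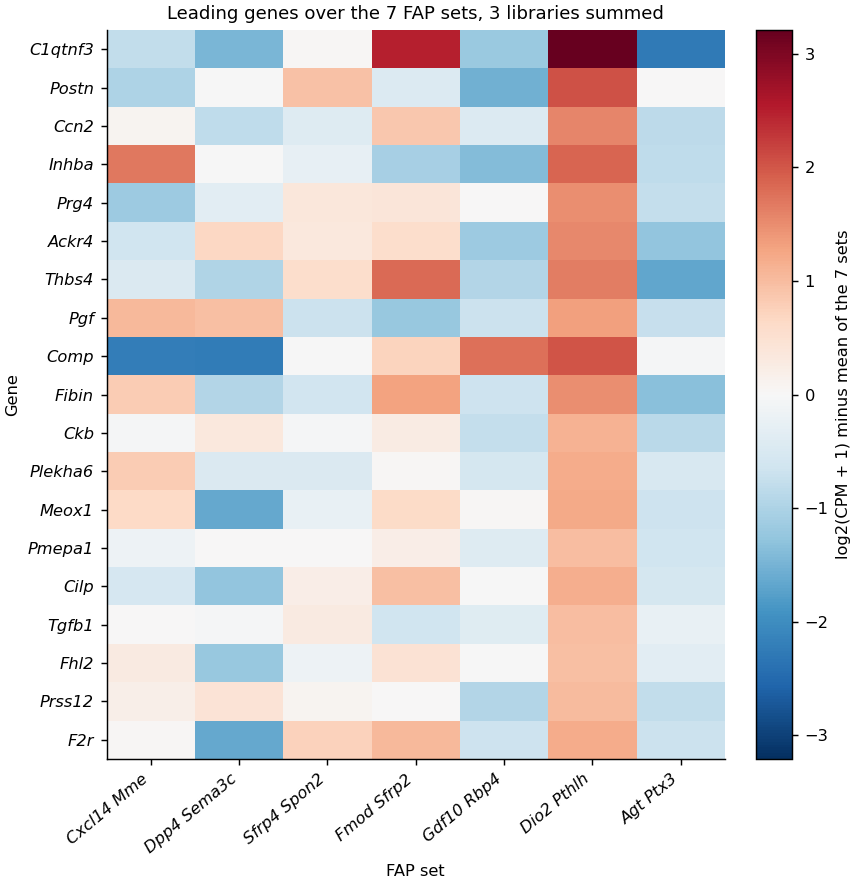
The same 19 higher genes over the 7 FAP sets with the libraries summed, as log2(CPM + 1) minus the mean of the 7 sets, red for above and blue for below that mean. *Thbs4* was also high in the *Fmod* *Sfrp2* set (2265 CPM), *Inhba* in the *Cxcl14* *Mme* set (61.1 CPM) and *Comp* in the *Gdf10* *Rbp4* set (51.1 CPM).

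The genes lower in *Dio2* *Pthlh* FAPs included a chemokine, a lipid carrier and a steroid enzyme. *Cxcl13*, the B cell chemokine, had 2 UMIs in the WT CD cells and none in the WT HFD or KO HFD cells, against 175, 100.03 and 29.1 CPM in the other sets. At the floor of 3 counts it was at least 6.57 and 4.29 lower on the log2 scale in the 2 HFD libraries. *Apoe*, the lipid carrier apolipoprotein E, stood at 42.5, 20.005 and 22.2 CPM against 563, 343 and 462 CPM. *Sult1e1*, the estrogen sulfotransferase, stood at 7.61, 6.67 and 1.48 CPM against 199, 63.2 and 50.2 CPM. *Igfbp3*, an IGF-binding protein, stood at 24.0, 14.7 and 6.92 CPM against 187, 105 and 103 CPM. *Igfbp3* and *Pappa*, a protease that cleaves IGF-binding proteins, were the 2 lower genes among 9 of the IGF system, of which none was higher. *Col6a5*, a type VI collagen chain, *Plac8*, *Maf*, a transcription factor, and *Trf*, which encodes transferrin, had highest log2 ratios between -2.67 and -1.57.

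Of 10 complement genes counted, 3 were lower, 1 was higher and the others were not called, with a median log2 ratio of -0.47. *C3*, the central component, stood at 760.0, 792 and 920 CPM against 1963, 2132 and 2309 CPM. *C4b* and *Cfb*, an early and an alternative pathway component, were also lower, at mean log2 ratios of -3.09 and -1.64. Of 17 cytokine and chemokine genes *Cxcl13* and *Ccl19* were lower and none higher, and of 10 interferon response genes none was counted, with a median of -0.47.

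Wnt pathway genes showed 6 lower of 16 and none higher. These were the ligands *Wnt4* and *Wnt5a*, the inhibitors *Sfrp1* and *Dkk2*, and *Rspo1* and *Rspo3*, which encode R-spondins that amplify Wnt signals. *Rspo3* stood at 2.80, 6.32 and 5.43 CPM against 37.3, 35.2 and 44.2 CPM. *Sfrp1* stood at 115, 122 and 127 CPM against 242, 282 and 299 CPM. In the hedgehog pathway *Cdon*, a co-receptor, was the lower gene of 5, and none was higher.

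The other genes of thyroid hormone handling did not follow *Dio2*. Of 6 counted none was higher and 1 was lower. *Thra*, the receptor TRα, reached 112, 128 and 104 CPM against 123, 135 and 116 CPM. *Dio3*, the deiodinase that inactivates the hormone, was at 1.48 CPM or less in every library. Of 16 genes of PTHrP and cyclic AMP signalling none was counted as higher or lower (median 0.02), and *Pth1r*, the receptor of PTHrP, reached 20.8, 19.3 and 20.3 CPM against 18.8, 23.8 and 19.3 CPM.

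None of 9 fibrillar collagen genes and none of 12 matrix-binding integrin genes was counted, with medians of 0.25 and 0.30. *Col6a5* was the lower gene of 12 other collagens. *Bgn*, which encodes biglycan, was the higher gene of 8 small leucine-rich proteoglycans outside *Aspn*, at 2537, 2528 and 2504 CPM against 1489, 1631 and 1571 CPM. Of 21 collagen-processing enzymes *Colgalt2*, a collagen galactosyltransferase, was higher and *Lox*, the cross-linking lysyl oxidase, was lower at 87.3, 105 and 86.5 CPM against 165, 205 and 210 CPM. Of 16 elastic fiber genes *Ltbp2*, *Fbln7* and *Mfap4* were higher and *Efemp1*, a fibulin, was lower. *Mfap4*, a microfibril protein, reached 1296, 1273 and 1675 CPM against 649, 845 and 752 CPM. Of 23 genes in the list of matrix proteases, inhibitors and related genes, 1 was higher (*Adamtsl2*) and 2 lower (*Adamtsl1* and *Adam33*). Of 15 myofibroblast genes 2 were higher (*Postn* and *Ltbp2*) and 1 lower (*Cdh11*).

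In the lists of regulators, *Enpp1*, which makes the mineralization inhibitor pyrophosphate, was the higher gene of 10 osteochondral regulators, and *Meox1* the higher gene of 22 mesenchymal transcription factors. None of 9 adipogenic regulators and none of 10 fatty-acid response genes was counted, with medians of -0.23 and -0.03. *Fgf1*, a fibroblast growth factor, was higher and *Hbegf*, an EGF family ligand, was lower among 11 trophic factors. *Npr1*, *Edn1* and *Adm* were lower among 15 vasoactive genes, and *Cdh11* and *Slit2* among 9 of axon guidance and adhesion. None of 19 dissociation and immediate early genes was counted (median -0.20).

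Markers of other cell types were summed over each list and set against the other FAPs. Of 8 tenocyte markers, *Thbs4* and *Comp* were counted as higher, and the list summed to 2035, 2081 and 2086 CPM against 746, 750.1 and 629 CPM, nearly all of it *Thbs4* (1996 CPM). *Mkx*, a tendon transcription factor, was too low to be counted but stood above the mean of the other sets in each library, at 8.01, 5.26 and 2.96 CPM against 2.75, 3.52 and 2.11 CPM. *Scx*, the other tendon transcription factor of the list, had 1 UMI in all 757 cells, and *Kera* and *Cilp2* had none. The tenocyte list was thus mixed.

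Myofiber markers also lay above the other FAPs in each library, at 44.1, 46.3 and 70.2 CPM against 27.2, 20.5 and 22.0 CPM. *Acta1*, the skeletal muscle actin of fibers, was the higher gene of that list at 20.8, 18.2 and 22.2 CPM, and without the 3 richest cells per library its mean log2 ratio went from 1.37 to 0.67 and its call was lost. Mural markers summed to 26.0, 28.1 and 61.3 CPM against 43.3, 29.5 and 44.5 CPM, and *Acta2* reached 33.6 CPM in the KO HFD cells. The KO HFD cells were thus the ones above the other FAPs for the mural list. The same held for Schwann cell markers, at 3.61, 3.16 and 17.8 CPM against 7.32, 7.34 and 7.40 CPM, and for erythroid markers, at 2.003, 1.40 and 6.92 CPM against 3.13, 63.9 and 3.07 CPM. Cycling markers summed to 2.80, 60.4 and 8.40 CPM against 13.3, 32.8 and 41.4 CPM, above the other FAPs in the WT HFD cells. Muscle stem cell markers summed to 41.7, 35.8 and 48.4 CPM against 38.3, 40.4 and 34.7 CPM, and perineurial markers to 71.3, 70.5 and 56.3 CPM against 66.0, 74.9 and 68.1 CPM, so that neither lay on 1 side throughout.

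The remaining lists were lower, with an exception for lymphocytes. Macrophage markers summed to 13.6, 26.0 and 14.3 CPM against 49.5, 49.3 and 22.9 CPM. Lymphocyte markers summed to 3.20, 1.75 and 1.48 CPM against 17.6, 1.20 and 6.38 CPM. Endothelial markers summed to 43.7, 42.1 and 45.95 CPM against 53.3, 62.5 and 57.2 CPM. Mesothelial markers, of which *Wt1* was the lower gene and *Msln*, *Upk3b* and *Lrrn4* had no UMI, summed to 32.9, 28.4 and 26.2 CPM against 98.0, 90.6 and 79.1 CPM. The lymphatic, adipocyte, chondrocyte and osteoblast lists also summed to less than in the other FAPs in each library, and the adipocyte genes *Plin1* and *Cidec*, the cartilage genes *Acan* and *Col2a1* and the osteoblast factor *Sp7* had no UMI. The part of these markers in the other results was not tested.

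Levels within the *Dio2* *Pthlh* FAPs are given as a description. The strata rest on the genes that chose the cells and the 20 leading genes were picked as high in them, so that the values are no independent support, and the strata differed in depth. All 20 were higher in the 235 cells with 4 set genes than in the 170 cells with 1 or 2, by a median log2 of 0.90, where the median depths were 10046 and 8122 UMIs. *Postn* stood at 123 CPM in cells with 1 or 2 set genes, 424 CPM with 3 and 768 CPM with 4. *Thbs4* stood at 1489, 1979 and 2302 CPM over the same steps. All 20 were also higher in the 392 cells with a *Dio2* UMI than in the 365 without (median 0.68), and 13 of 20 were higher in the 497 cells with a *Pthlh* UMI than in the 260 without (median 0.16). *Ccn2* was 1422 CPM with and 643 CPM without *Dio2*, but 942 CPM with and 1321 CPM without *Pthlh*. The difference between these splits was not tested. *Inhba* was 149 CPM in cells whose next set was *Cxcl14* *Mme* against 24.0 CPM where it was *Fmod* *Sfrp2*.

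**Figure D4:**
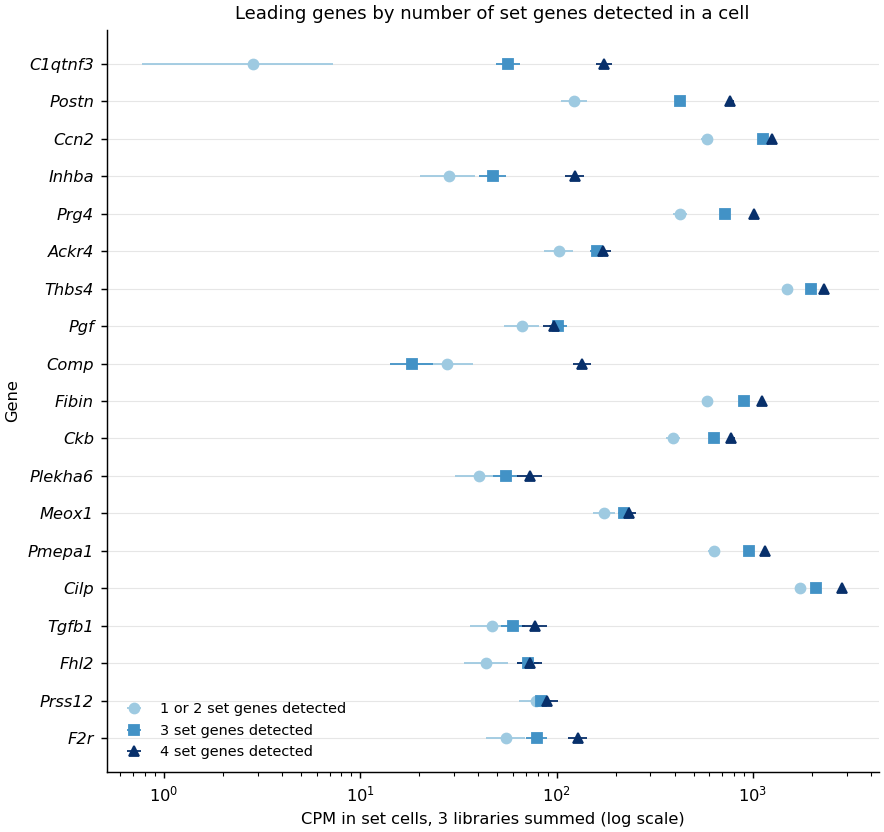
CPM of the same 19 higher genes (log axis, exact 95% Poisson intervals, libraries summed) in *Dio2* *Pthlh* FAPs with 1 or 2, 3 or 4 of the set genes detected. *Postn* went from 123 to 424 and 768 CPM, and the cells with 4 set genes stood above those with 1 or 2 for all 19 genes, which were picked as high in the chosen cells.

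Promoters of 18 of the 24 set and leading genes were found in the RefSeq table, and the 250 bases before each start site were searched on both strands. The motif CATTCC, bound by TEAD factors, which with YAP drive *Ccn2*, was present in 5 of 18 (27.8%), those of *Dio2*, *Fibin*, *Ckb*, *Thbs4* and *C1qtnf3*, and in 12.6% of all 32851 promoters. The cyclic AMP element TGACGTCA was in 1 (*Dio2*) and in 1.55% of all, and the AP-1 motif TGANTCA in 1 (*F2r*) and in 6.75% of all. The 2 below show CATTCC, in capitals. In *Fibin* (GRCm38.p6, chr2:110362994-110363243, minus strand) it begins 181 bases before the start. In *Thbs4* (chr13:92794819-92795068, minus strand) 2 copies that share a base begin 197 and 192 bases before the start. A match is only a match of letters.
Fibin: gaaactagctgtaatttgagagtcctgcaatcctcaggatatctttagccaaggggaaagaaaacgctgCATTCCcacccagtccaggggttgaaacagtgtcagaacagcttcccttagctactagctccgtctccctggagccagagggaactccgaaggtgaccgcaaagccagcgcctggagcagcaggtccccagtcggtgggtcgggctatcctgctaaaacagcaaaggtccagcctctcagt
Thbs4: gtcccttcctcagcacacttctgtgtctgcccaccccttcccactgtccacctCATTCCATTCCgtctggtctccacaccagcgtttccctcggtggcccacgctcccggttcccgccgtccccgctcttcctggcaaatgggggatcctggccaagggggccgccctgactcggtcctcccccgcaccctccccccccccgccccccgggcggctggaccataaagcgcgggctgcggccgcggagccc

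The targeted gene is given here before the comparisons of groups. *Thbs1* (chr2, 118111876 to 118127133) reached 254 CPM (235 to 275) in the WT CD, 442 CPM (418 to 467) in the WT HFD and 199.6 CPM (181 to 220.1) in the KO HFD cells. In the other FAPs it reached 186, 198 and 234 CPM, so that the library labelled KO HFD was not low there. The counts come from the 3′ end of the transcript, and such reads can remain after a deletion elsewhere in the gene, so that these values check neither the label nor the loss of the protein. Within the *Dio2* *Pthlh* FAPs *Thbs1* was higher on HFD (log2 ratio 0.80) and lower in the KO (log2 ratio -1.15), and both calls held without the 3 richest cells per library, at 0.66 and -0.99. With scores from cells thinned to 3000 UMIs they came to 0.50, under the 1.5-fold limit, and to -0.68.

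For the comparison of diets, 74 of 5961 genes (1.24%) were higher in the WT HFD than in the WT CD cells and 30 (0.503%) lower, at 1.5-fold or more with intervals apart. With edgeR's TMM factors the split was 56 to 39, and with median-of-ratios factors 49 to 41. In the other FAPs 67 of the 74 and 23 of the 30 had the same sign, and 12 and 13 of them were called there too. Of all 5806 genes counted in the other FAPs, 54 were higher and 52 lower. The median log2 ratio over all genes was 0.06.

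Of 10 fatty-acid response genes, *Angptl4* and *Cpt1a* rose on HFD and the others were not called (median log2 ratio 0.24). *Angptl4*, a secreted inhibitor of lipoprotein lipase, went from 5.21 CPM (2.77 to 8.91) to 51.2 CPM (43.3 to 60.3), a log2 ratio of 3.30, and stood at 35.1 CPM in the KO HFD cells. It was detected in 5.04% of the WT CD and 31.6% of the WT HFD cells, at median depths of 9165 and 9785 UMIs. Among barcodes with a *Ptprc* UMI, which mark leukocytes, it was detected in 0.562% and 5.145%, at median depths of 9024 and 8801 UMIs. In the other FAPs *Angptl4* went from 15.7 to 57.6 CPM. *Cpt1a*, which brings fatty acids into mitochondria, went from 28.4 to 53.0 CPM. *Ech1*, an enzyme of fatty acid oxidation outside that list, went from 95.7 to 156 CPM. With scores from cells thinned to 3000 UMIs the log2 ratio of *Ech1* came to 0.52, under the 1.5-fold limit.

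Other genes that rose on HFD had varied roles. *Pde4b*, which degrades cyclic AMP, went from 39.3 to 64.6 CPM, and with *Pde3a* (17.6 to 34.0 CPM) was called among 14 genes of PTHrP and cyclic AMP signalling. *Aldh1a2*, which makes retinoic acid, went from 32.05 to 54.05 CPM. *Gxylt2*, *Hist1h1e*, *Msl3* and *Trps1*, a GATA-type repressor, had log2 ratios between 0.68 and 1.11. With scores from cells thinned to 3000 UMIs *Aldh1a2*, *Gxylt2*, *Msl3* and *Trps1* came to 0.55, 0.50, 0.42 and 0.48, all under the 1.5-fold limit. Of 15 cytokine and chemokine genes 5 were higher (*Cxcl2*, *Cxcl10*, *Ccl2*, *Ccl8* and *Tnfrsf11b*), with a median of 0.22, and all but *Cxcl2* held without the 3 richest cells per library. *Ccl2*, the monocyte chemokine, went from 292 to 467 CPM and stood at 302 CPM in the KO HFD cells. A few cells weighed on these levels, since without the 3 richest per library the log2 ratio of *Ccl2* went from 0.68 to 1.72 between diets and from -0.63 to -1.12 between genotypes. *Postn* and *Prg4* were called too (log2 ratios 0.62 and 0.60). Without the 3 richest cells *Postn* came to 0.41 and lost its call, while *Prg4* came to 0.58, about the same size and just under the 1.5-fold limit.

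Of 19 dissociation and immediate early genes, 3 heat shock genes were lower on HFD and *Egr2*, an immediate early transcription factor, was higher (24.4 to 40.4 CPM), with a median log2 ratio of 0.06. *Hspa1a* and *Hspa1b*, near-identical Hsp70 genes whose counts may be split between them, fell from 320 to 143 CPM and from 270 to 109 CPM. *Hspb1*, a small heat shock protein, fell from 510.4 to 309 CPM. Its log2 ratio came to -0.57 with a margin of 0.25 over the next set and to -0.49 with scores from thinned cells. Both lie under the 1.5-fold limit. *Hspa2*, another Hsp70 gene, was not called (35.7 and 31.2 CPM). *Fdps*, of the mevalonate pathway, fell from 86.1 to 40.7 CPM. *Hspa1a*, *Hspa1b*, *Hspb1* and *Fdps* had the same direction in the other FAPs. *Dhrs3*, which reduces retinaldehyde, fell from 114 to 50.9 CPM, *Bmyc* from 97.3 to 54.7 CPM and *Mmp3*, the protease stromelysin 1, from 125 to 35.4 CPM. With the margin of 0.25 *Bmyc* came to a log2 ratio of -0.57, under the 1.5-fold limit. *Ltbp2* and *Fmo2* were also called as lower. Without the 3 richest cells both calls were lost but the log2 ratios were close to as large, from -1.19 to -1.05 and from -0.60 to -0.55, whereas that of *C1qtnf3* reversed from -0.90 to 0.40. For *Fmo2* the log2 ratio was -0.31 with a margin of 0.25 over the next set and -0.35 with scores from thinned cells. It was -0.44 with z-scores within each library, so that the size for *Fmo2* depended on the processing.

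The gene lists taken from the study were read for the same comparison. None of its 8 ECM genes was called in the *Dio2* *Pthlh* FAPs, with a median log2 ratio of 0.44 against 0.06 over all genes. The study chose these lists on the same samples, so that they are no independent evidence of a direction. *Col3a1*, a fibrillar collagen, stood at 3222 CPM in the WT CD, 4568 in the WT HFD and 3758 in the KO HFD cells. Of 9 fibrillar collagens none was called either (median 0.32). None of 9 FAP2 genes of the study was called (median 0.16), and their log2 ratios ran from -0.34 for *Thy1*, a surface glycoprotein (89.7 and 70.9 CPM on CD and HFD), to 0.53 for *Cd55*, a complement regulator (372 and 536 CPM). *Fbn1*, which encodes fibrillin 1, stood at 916 and 1198 CPM, and *Fn1*, which encodes fibronectin, at 715 and 761 CPM, a log2 ratio of 0.09 that was 0.38 without the 3 richest cells per library. Of 3 FAP1 genes none was called (median -0.19). Of 7 genes of TGF-β and thrombospondin 1, *Thbs1* and *Prg4* were called as higher (median 0.23), and *Timp1*, a protease inhibitor and the 1 FAP3 gene counted, was called at 0.63 and came to 0.42 without the 3 richest cells.

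For the comparison of genotypes on HFD, 30 of 5962 genes (0.503%) were higher in the KO HFD than in the WT HFD cells and 50 (0.839%) lower. The split was 34 to 46 with TMM factors and 40 to 43 with median-of-ratios factors. Without the 3 richest cells 16 genes were higher, and with a margin of 0.25 over the next set 76 were lower. In the other FAPs 23 of the 30 and 41 of the 50 had the same sign, and 5 and 3 were called. Of all 5840 genes counted in the other FAPs, 33 were higher and 16 lower. The median over all genes was -0.06. This comparison shares the WT HFD library with the comparison of diets.

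*Thbs1* itself was among the lower genes. *Has1*, a hyaluronan synthase, was 185 CPM in the WT HFD and 108 CPM in the KO HFD cells, but it is a scoring gene of the *Agt* *Ptx3* set, so that its level here depends on the rule and is a description. *Gadd45a*, a stress response gene, was 76.5 and 42.5 CPM, against 51.3 and 57.6 CPM in the other FAPs. With scores from cells thinned to 3000 UMIs *Has1* and *Gadd45a* came to log2 ratios of -0.41 and -0.39, under the 1.5-fold limit. *Ide*, the insulin-degrading enzyme, was 66.7 and 31.6 CPM, and lower in the other FAPs too (57.8 and 33.5 CPM). The opposite sign of *Gadd45a* in the other FAPs was not tested. *Zc3h14*, *Basp1*, *Flrt2*, a guidance receptor ligand, and *Glis2*, a zinc finger factor, had log2 ratios between -0.80 and -0.71. With scores from thinned cells *Basp1*, *Flrt2* and *Glis2* came to -0.47, -0.37 and -0.41, all under the 1.5-fold limit. *Glis2* was also under it with z-scores within each library, at -0.45. *Ccl2* fell to 302 CPM, as given above, and *Hist1h1e* from 59.7 to 35.6 CPM, the latter at log2 ratios of -0.75 with and -0.61 without the 3 richest cells, where its call was lost. *Eif3j1* (chr2, 122028546 to 122056598), a translation initiation factor gene on the same chromosome as *Thbs1*, was 102 and 26.7 CPM. Its near-identical copy *Eif3j2* was 9.83 and 57.3 CPM. Neither the division of reads between the copies nor any other cause was tested, so that both levels are uncertain.

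Some of the genes called higher in the KO rested on few cells. *Tnc*, which encodes tenascin C, went from 5.26 to 53.9 CPM, but 99 of its 109 UMIs lay in 1 cell, and without the 3 richest cells the log2 ratio went from 3.35 to -0.73. *Tagln*, a smooth muscle gene, went from 18.2 to 59.3 CPM and likewise from 1.70 to -0.66. Of 14 myofibroblast genes 6 were called as higher, and the calls of *Tpm2*, a tropomyosin, and *Ltbp2* held without such cells. *Acta2*, smooth muscle actin, lost its call with a log2 ratio that went from 1.88 to 1.58, while *Cthrc1*, a secreted matrix protein, went from 2.40 to -0.09. *Inmt*, a methyltransferase, went from 188 to 305 CPM, *Adm*, which encodes the vasodilator adrenomedullin, from 94.4 to 155 CPM, *Angptl7*, a secreted angiopoietin-like protein, from 56.15 to 101 CPM and *Vtn*, which encodes vitronectin, from 40.01 to 67.2 CPM. These 4 calls held without the richest cells. With scores from cells thinned to 3000 UMIs *Adm* and *Inmt* came to log2 ratios of 0.32 and 0.34, and with z-scores within each library *Angptl7* came to 0.55, all under the 1.5-fold limit. Of the 19 dissociation and immediate early genes 2 were higher in the KO and none lower, the near-identical *Hspa1a* (143 to 219 CPM) and *Hspa1b* (109 to 184 CPM). *Hspa2*, outside that list, went from 31.2 to 52.9 CPM. With a margin of 0.25 over the next set its log2 ratio was 0.43, under the 1.5-fold limit.

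**Figure D5:**
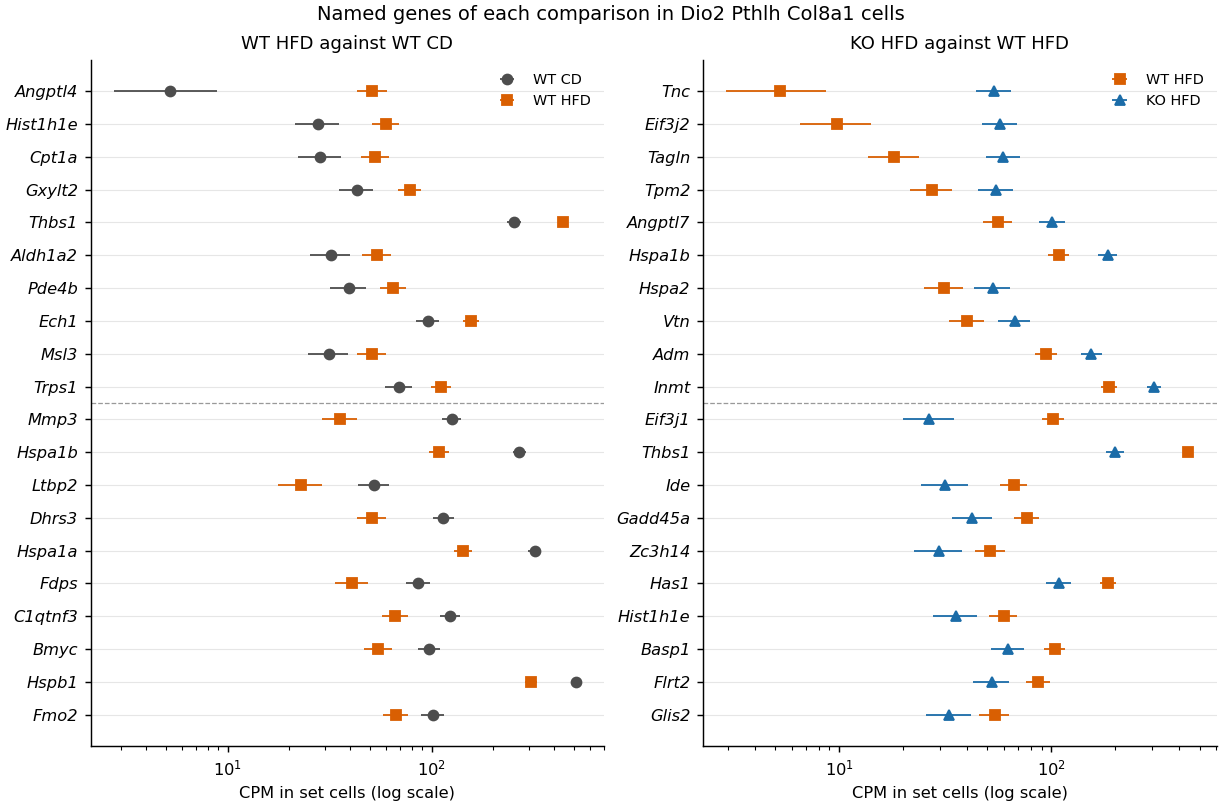
CPM in *Dio2* *Pthlh* FAPs (log axis, exact 95% Poisson intervals) of the genes named for the comparison of diets in WT cells and of genotypes on HFD, with higher genes above the dashed line and lower genes below it. *Angptl4* stood at 5.21 and 51.2 CPM on the 2 diets, and *Thbs1* at 442 and 199.6 CPM in the 2 genotypes on HFD.

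The 4 set genes were not called in either comparison. The cells were chosen on these genes, so that this is a description and does not show that their levels were unchanged. *Dio2* had a log2 ratio of 0.25 between diets and of -0.48 between genotypes, *Pthlh* of -0.36 and 0.07, *Col8a1* of 0.20 and -0.09 and *Aspn* of 0.24 and -0.16. Over all FAPs, chosen without these genes, *Dio2* stood at 29.2 CPM (26.7 to 31.8) in WT CD, 44.6 (41.4 to 47.9) in WT HFD and 26.6 (24.3 to 29.0) in KO HFD. *Pthlh* stood there at 59.4, 53.5 and 45.7 CPM and *Col8a1* at 278, 346 and 273 CPM. Within the *Dio2* *Pthlh* FAPs *Thbs4* had log2 ratios of 0.05 between diets and 0.00 between genotypes, and *Ccn2* of 0.23 and 0.00.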

How the data were processed

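Per the labels, mononuclear cells of the costal diaphragm were profiled by droplet 3′ RNA sequencing. The authors deposited 1 matrix of raw UMI counts per library (32285 genes) with no cell annotation. The submitters' processing notes name Cell Ranger 6.1.1 and mm10, and the matrix headers name Cell Ranger 6.1.0. Counts were made before deposit, and alignment was not repeated. No column of sample values was left unused.

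Counts were summed over the *Dio2* *Pthlh* FAPs of each library and divided by their total to give CPM. The other 6 sets were averaged with equal weight. Genes at 20 CPM or more in either population compared were counted. A call needed a 1.5-fold difference with exact 95% Poisson intervals that did not meet. Against the other sets, the fold was taken to their mean and the interval was that of the other FAPs summed. With 1 library per group there was no test across libraries. Cells are not replicates, and the intervals cover counting error only. Doublets called by Scrublet (expected rate 0.06) were kept. For shares of cells with a UMI, cells were thinned to 3000 UMIs, which kept 255 of 258 WT CD, 274 of 275 WT HFD and 223 of 224 KO HFD cells. Cells were assigned by the stated rule and not clustered, so that populations named in the study may hold other cells.

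The genes named were the 4 set genes, outside the 28 scoring genes the 20 with the highest lowest ratio and the 10 with the lowest highest ratio over the 3 libraries at 50 CPM or more, the 10 highest and 10 lowest called genes of each group comparison at 50 CPM or more (scoring genes included), up to 4 members of each list, and *Thbs1*. Ribosomal, mitochondrial and predicted genes were counted but not named. Results for a few other genes enter the counts but are not reported here. *Sparcl1*, *Ccl2*, *Pmepa1* and the few members that made up a list's count were also named where they gave that count or fell beside a named gene, after their values were seen. The cells, lists and comparisons were chosen with earlier results of these data known. Alternatives were other scalings, filters, folds, margins, gates and sets, with edgeR used for TMM factors alone. The calling step was tested on simulated data. A gene whose true difference is close to 1.5-fold can fall under the limit, so that a gene not called may still differ. Promoters came from a RefSeq table (GRCm38.p6), in which 18 of 24 genes were found. Python 3.11.15, numpy 2.4.6, scipy 1.17.1, pandas 2.3.3, scanpy 1.11.5, matplotlib 3.10.9, R 4.3.3 and edgeR 4.0.16 were used.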

Additional observations from a re-analysis of the deposited data

Results flagged for a closer look

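*Mmp3*, which encodes stromelysin 1, was called in opposite directions in the 2 populations for KO HFD against WT HFD. In the *Dio2* *Pthlh* FAPs its log2 ratio was 0.59 (35.4 CPM in the WT HFD and 53.4 CPM in the KO HFD cells), while in the other FAPs it was -0.61 (57.7 and 37.7 CPM). Of the 108 *Mmp3* UMIs in the KO HFD cells, 83 lay in 1 cell (76.9%), and without the 3 richest cells per library the log2 ratio in the *Dio2* *Pthlh* FAPs was -1.62. The difference between the populations was not tested.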

How the results depend on the processing

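No paired analysis was possible because each group has 1 library, and for the same reason no library could be left out. A share stayed when it lay within its counting interval, and a count of genes when it lay within 1.5 times. A log2 ratio to the other sets stayed when it moved by no more than its standard deviation over the 3 libraries. A log2 ratio between groups stayed when it moved by no more than its counting error. Of the values that answer a comparison, 124 stayed and 39 moved. Of the values for single genes 818 stayed, 89 moved and 3 changed sign. With z-scores within each library the shares were 13.4% (WT HFD) and 12.2% (KO HFD). With a margin of 0.25 over the next set they were 9.17%, 10.5% and 7.19% (WT CD, WT HFD, KO HFD), the log2 ratios to the other sets were 3.18 (*Pthlh*), 2.07 (*Col8a1*) and 1.69 (*Aspn*), and 76 genes were lower in the KO. Scores from thinned cells gave 3.52 for *Dio2* and 2.56 for *Pthlh*. Without *Dio2* in the set the shares were 16.1% (WT CD) and 12.8% (KO HFD) and the ratios 2.77 (*Dio2*), 3.04 (*Pthlh*) and 1.94 (*Col8a1*). Without *Pthlh* the WT HFD share was 17.3% and the ratios 1.80 (*Pthlh*) and 2.02 (*Col8a1*). Without *Col8a1* they were 3.20 (*Pthlh*) and 1.498 (*Col8a1*), and without *Aspn* 3.25 (*Pthlh*) and 1.27 (*Aspn*). Median-of-ratios factors gave 49 genes higher on HFD. With every gene that had a UMI, 127 were higher and 57 lower on HFD, and 57 higher and 84 lower in the KO. From 50 CPM, 26 were higher and 13 lower on HFD and 18 lower in the KO. At 2-fold, 21 and 14 were called for HFD and 7 and 12 for the KO. An alternative chosen after seeing the data left out, for each gene, the 3 richest *Dio2* *Pthlh* FAPs of each library. The other sets were kept whole. This alternative gave 42 genes higher than in the other sets, 16 higher in the KO and ratios of 2.75 (*Pthlh*) and 1.68 (*Col8a1*). It reversed *C1qtnf3* on HFD (0.40) and *Tnc* (-0.73) and *Tagln* (-0.66) in the KO. Scores from thinned cells put 8 of the 20 genes named for the diet comparison and 7 of the 20 named for the KO under the 1.5-fold limit. For other changes the cause was not tested.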
